A study of Mus musculus with 55 samples.

Results

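Livers of male mice from 11 Collaborative Cross (CC) lines were compared by the founder haplotype that each line carries at Cyp3a25 on mouse chromosome 5. The A/J group held the lines IL-4052, IL-4457, IL-72, IL-1141, IL-4032 and IL-611 (11 mice), and the B6 group held IL-2126, IL-2011, IL-2156, IL-1452 and IL-557 (8 mice). Together they are 19 of the 55 mice and 11 of the 29 lines of the series. The lines were chosen by their strain labels, with the haplotype of each line at the locus associated with the isoform ratio of Cyp3a25. The haplotypes were read from a figure of the study and are not in the sample labels. The study's text names IL-2156 as a B6-carrying line. Its list of such lines has another name in that place, which no mouse in these data carries. The question was whether anything other than Cyp3a25 differed between the 2 groups, first among its neighbours and then over all expressed genes.

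All mice were untreated males, 8.4 to 10.9 weeks old in both groups, with body weights of 14.8 to 35 g in A/J and 17.8 to 38 g in B6. Each line is a recombinant inbred line from 8 founder strains, so that 2 lines sharing a haplotype at Cyp3a25 may differ anywhere else in the genome, and founder haplotypes at other positions were not used here. A line had 1, 2 or 3 mice. Mice of a line are close relatives, and the line, not the mouse, was the unit of every test except where 19 mice are named. The library of each liver was sequenced as paired reads from poly(A) RNA, and expression is given as FPKM, the fragments of a gene scaled by transcript length and by library depth. Depth was 22.0 to 31.7 M assigned fragments per mouse in A/J and 20.5 to 29.6 M in B6. The line means of depth did not differ beyond their spread (two-sided exact permutation test, p = 0.139).

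Cyp3a enzymes are cytochromes P450 of the endoplasmic reticulum that oxidize drugs, steroids and bile acids. In the mouse most of them lie in a tandem cluster on chromosome 5, and their transcription in hepatocytes is raised by the nuclear receptors PXR and CAR. A haplotype block inherited from one founder carries a whole neighbourhood of genes, so any neighbour whose expression is controlled locally can differ along with the gene that defined the groups. Rpl21, a neighbour on the telomeric side, encodes a protein of the large ribosomal subunit. Ribosomal protein genes are known for their many processed copies elsewhere in the genome, formed by reverse transcription of the spliced messenger RNA.

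One mouse stood apart from its line mate. The second mouse of IL-4052 had 38.4 FPKM of Rpl21 against 1.64 FPKM in the first, and the Cyp3a25 isoform ENSMUST00000145062 took 7.77% of the gene in the second mouse against 0.85% in the first. In both readouts the second mouse lay between the groups. For Rpl21, differences that rest on it are also given without it or without its line. The Cyp3a25 ranges include it.

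Rpl21 (ENSMUSG00000041453) lies on the plus strand at chr5:147644466-147648608 (NCBI build 37, mm9), 823.3 kb from the start of Cyp3a25. Of all annotated transcripts, those of 71 other genes matched its coding sequence of 480 bases over at least 200 bases with at least 80% identity. The closest were Gm10163, Gm10240 and Gm13370, each with 99.6% identity over the whole coding sequence. Of these only Gm10163 (ENSMUSG00000066443), an annotated pseudogene on the plus strand at chr9:88285640-88286189, was above 2 CPM (counts per M assigned fragments) in any of the 19 mice. The reference sequences of Rpl21 and Gm10163 are shown because fragments had to be assigned between them. How that assignment bears on the difference was not tested, since no reads were examined here. Their coding parts differed at only 2 bases, T336C and T432C, counted from 1 at the first coding base of Rpl21 with the Rpl21 base first, each at the third position of a codon. The stretches around them follow, 5′ to 3′, with the differing base in capitals, from chr5:147647219-147647247 and chr9:88285996-88286024 for the first and from chr5:147647464-147647492 and chr9:88286092-88286120 for the second.
Rpl21, base 336: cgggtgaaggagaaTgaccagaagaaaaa
Gm10163, base 336: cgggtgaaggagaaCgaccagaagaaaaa
Rpl21, base 432: tttgtgaggactaaTggaaaagagcctga
Gm10163, base 432: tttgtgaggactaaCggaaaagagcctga
The reads were 50 bases long, and those of both groups were aligned to the same reference genome, mm9. The A/J sequence of these genes was not used here. A fragment that covers neither base of the coding sequence fits both genes equally there, and RSEM divides such fragments between genes by its estimate. In the best alignment of the whole transcripts, 529 of the 899 bases of Rpl21 ENSMUST00000075453 aligned with Gm10163, with 2 mismatches. For Rpl21 ENSMUST00000035983 it was 547 of 1856 bases. The remaining bases of these transcripts lay outside that alignment.

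Total expression was tested for 11283 genes other than Cyp3a25, as the difference of line means of log2(FPKM + 1), A/J minus B6. One gene, Rpl21, passed an adjusted p of 0.05 (limma, Benjamini-Hochberg), which is 0.00886% of the genes tested. An unadjusted p under 0.05 was reached by 305 genes or 2.7%, with 136 (1.21%) higher and 169 (1.5%) lower in A/J. The line values of the groups did not overlap for 24 genes or 0.213%. Within 5 Mb of Cyp3a25, 68 genes were tested. Besides the called gene, 3 more had an unadjusted p under 0.05, which made 4 of 68 or 5.88%, with 1 higher and 3 lower in A/J. The groups did not overlap for 2 of the 68 genes, Rpl21 and Cpsf4, both within 1 Mb. On chromosome 5 beyond the window, 23 of 663 genes (3.47%) had an unadjusted p under 0.05, and none of them had groups that did not overlap.

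**Figure D1:**
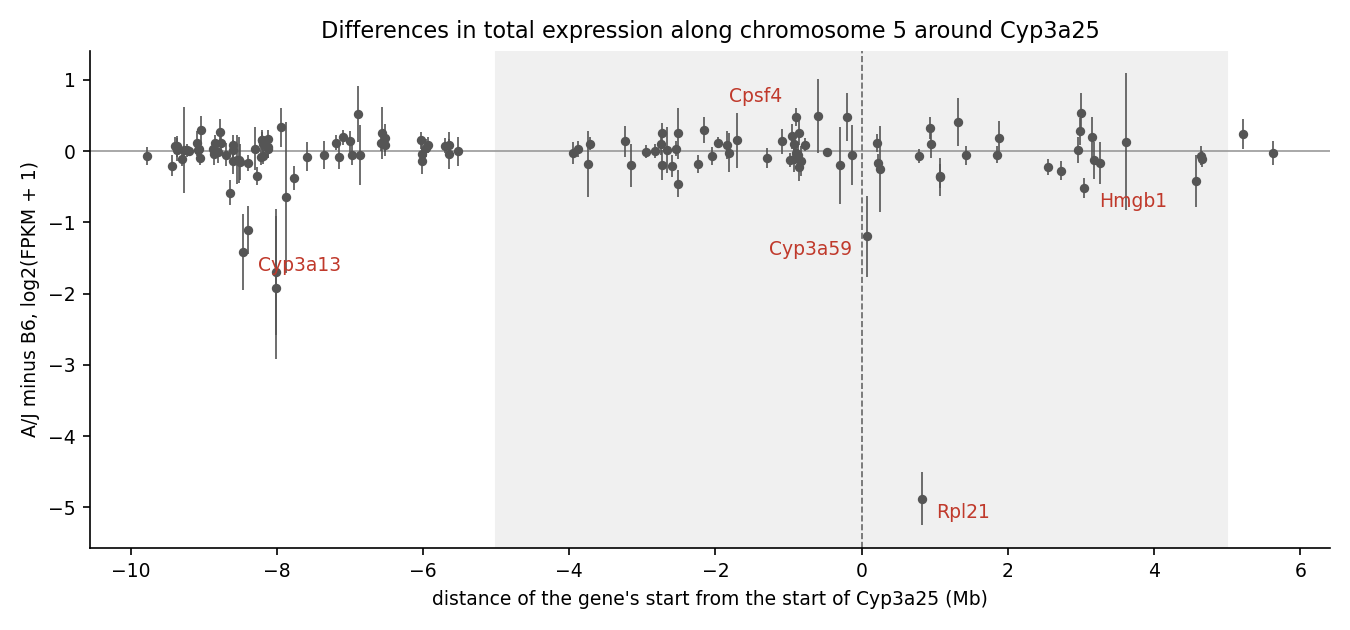
Difference in total expression (A/J minus B6, log2(FPKM + 1), vertical axis) against the distance of a gene's start from that of Cyp3a25 (horizontal axis, Mb), for tested genes within 10 Mb. Points are estimates from 6 A/J and 5 B6 lines, bars are standard errors, and the shaded band is the 5 Mb window. Rpl21 sits at -4.88, while the medians of the window (-0.02) and of all genes (-0.01) are close to 0.

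The FPKM assigned to Rpl21 was lower in A/J. In the A/J lines the mean of the mice was 20.04 FPKM in IL-4052, 1.63 in IL-4457, 1.77 in IL-72, 1.58 in IL-1141, 1.87 in IL-4032 and 2.30 in IL-611. In the B6 lines it was 169.5 FPKM in IL-2126, 117.8 in IL-2011, 78.5 in IL-2156, 70.7 in IL-1452 and 97.8 in IL-557. Every B6 mouse, from 68.97 to 169.5 FPKM, lay above every A/J mouse, of which 10 had 1.29 to 2.63 FPKM. The log2 difference was -4.88 ± 0.37 (SE, n = 6 and 5 lines, adjusted p = 0.000637 by limma). The exact permutation test of the line means gave p = 0.00433 (two-sided), the smallest that 6 against 5 lines allow. Without the second IL-4052 mouse the difference was -5.21 and without the whole line -5.19. Without IL-2156, which the study's list of B6 lines does not name, it was -4.98 (adjusted p = 0.00354 by limma). The call was lost with edgeR on line sums of the counts, where Rpl21 had the smallest p of all genes. Its log2 differences by edgeR were -4.31 with the filter (adjusted p = 0.999) and -4.27 without (adjusted p = 0.848). The call was also lost with the 6 lines of at least 2 mice (-4.62, adjusted p = 0.690 by limma). Of the B6 lines, only IL-2011 and IL-2156 are among those 6.

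Gm10163 went the other way and was not called by limma, but DESeq2 on line sums called it (log2 difference 0.71). Its line means were 316.7 to 539.9 FPKM in A/J (median 410.7) and 185.5 to 322.6 FPKM in B6 (median 237.1), and only the lowest A/J and the highest B6 line overlapped. The log2 difference was 0.72 ± 0.18 (SE, adjusted p = 1 by limma, exact permutation p = 0.00866). In CPM, Rpl21 had 1.63 to 17.4 in the A/J lines and 59.6 to 144.5 in the B6 lines, and Gm10163 had 150.7 to 251.0 and 89.5 to 159.2.

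The sum of the pair did not separate the groups. It was 152.5 to 252.9 CPM in the A/J lines (mean 200.1 ± 36.2, SD, n = 6) and 149.1 to 303.7 in the B6 lines (mean 210.7 ± 60.5, SD, n = 5). The difference on the log2(CPM + 1) scale was -0.05 (two-sided exact permutation test, p = 0.827), and it was -0.02 without IL-4052 (p = 0.937, exact). Adding the 70 other matching genes changed the range to 153.5 to 253.8 CPM in A/J and 149.9 to 304.3 in B6 (difference -0.05, exact permutation p = 0.823). Among those 70, only Gins3 exceeded 2 CPM in any of the 19 mice, at 2.37. What differed was the division of the pair. Rpl21 took 0.71% to 9.06% of the pair's fragments in the A/J lines and 37.9% to 47.6% in the B6 lines (difference -39.7 points, exact permutation p = 0.00433). Without IL-4052 the difference was -41.1 points (exact permutation p = 0.00794). The second IL-4052 mouse had 17.1%, and the 10 other A/J mice had 0.699% to 1.51%.

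**Figure D2:**
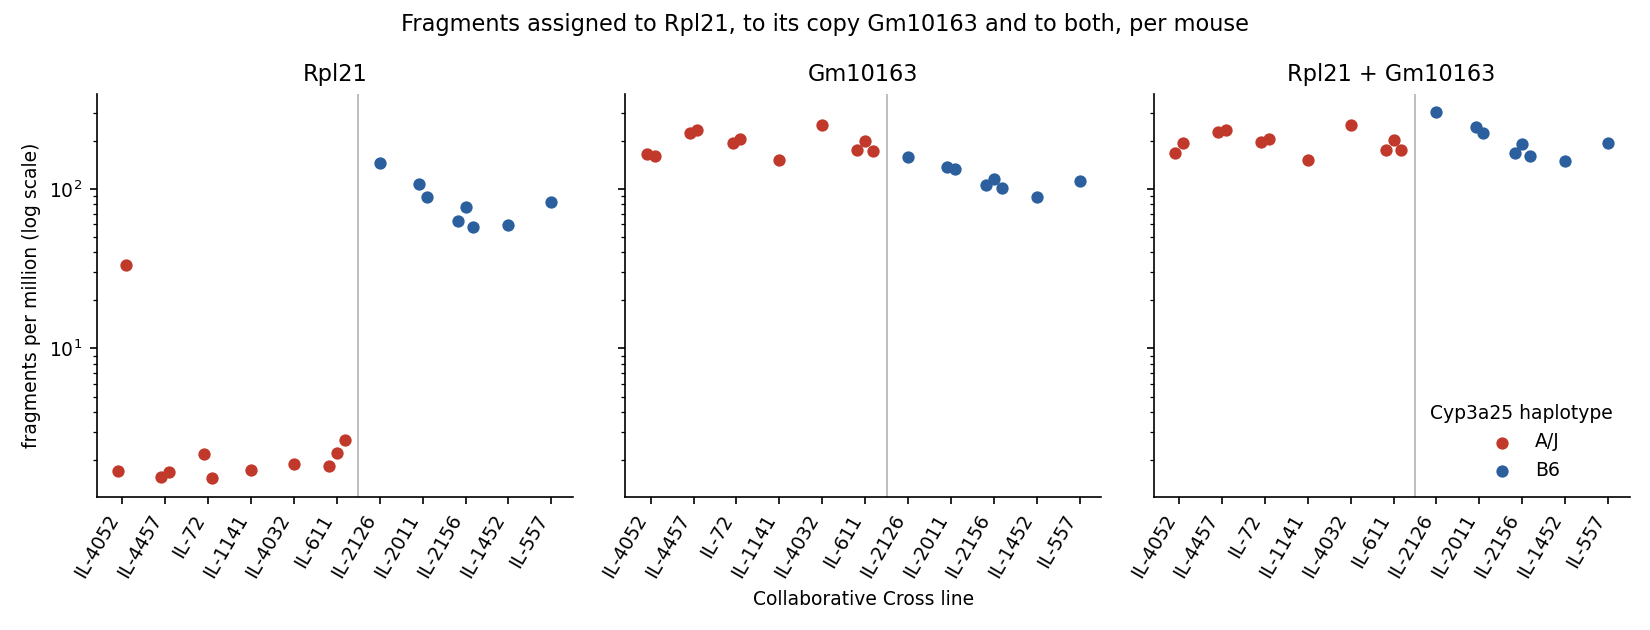
CPM, counts per M assigned fragments (vertical axis, log scale) of Rpl21, of Gm10163 and of both summed, for each of the 19 mice by line. Red points are mice of A/J lines and blue points mice of B6 lines. Rpl21 separates the groups, with one IL-4052 mouse between them at 33.2 CPM, Gm10163 lies higher in most A/J mice, and the sum lies between 149.1 and 303.7 in every mouse.

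The other 36 mice of the series also fell into separate levels of Rpl21. Of these, 18 had 0.99 to 2.18 FPKM, 15 had 67.8 to 108.0 FPKM, and the 3 mice of IL-785 had 28.8 to 34.4 FPKM (the ranges were set after the values were seen). Mice of one line stood at different levels in IL-1052 (1.42 and 71.3 FPKM), IL-2750 (1.49, 67.8 and 1.22 FPKM) and IL-3438 (93.7 and 1.91 FPKM). The 1 mouse of IL-2693 differed in which copy was listed. There the pair had 35.7 CPM, all matching genes together had 164.1, and the pseudogene Rpl21-ps15 on chromosome X had 116.5, against at most 0.216 in any other mouse. The 75 other protein-coding genes named Rpl or Rps that were tested, a group added after the result was seen, had a median log2 difference of -0.04. None of them was called by limma, and 2 had an unadjusted p under 0.05.

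Among the remaining neighbours, Cpsf4, a subunit of the factor that cleaves and polyadenylates messenger RNA precursors, was the only one whose lines did not overlap. It had 8.60, 8.74, 12.3, 9.54, 13.9 and 9.93 FPKM in the A/J lines, in the order given at the start, and 8.17, 6.78, 7.33, 6.65 and 6.88 FPKM in the B6 lines. The lowest A/J line stood at 8.60 FPKM and the highest B6 line at 8.17 FPKM, and single mice of the groups did overlap. The log2 difference was 0.48 ± 0.13 (SE, adjusted p = 1 by limma, exact permutation p = 0.00433), and DESeq2 on line sums called it with an adjusted p of 0.0237. Cpsf4 starts at -893.1 kb from Cyp3a25, on the side opposite to Rpl21.

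Hmgb1, an abundant chromatin protein, had 35.1 to 47.1 FPKM in the A/J lines and 44.1 to 75.6 FPKM in the B6 lines, which overlapped (log2 difference -0.52 ± 0.14, SE, exact permutation p = 0.00866). 2810453I06Rik had 0.94 to 2.17 FPKM in A/J and 1.75 to 4.59 in B6 (-0.46 ± 0.19). Another tested entry of the same symbol and distance went the other way (0.25 ± 0.36). Ubl3, a membrane-anchored ubiquitin-like protein, had 13.5 to 18.2 FPKM against 15.3 to 22.7 (-0.23 ± 0.11). Neither they nor the next genes by p were called. Gtf3a, the factor that starts 5S ribosomal RNA synthesis, had 6.87 to 11.3 FPKM in A/J and 5.87 to 8.82 in B6, and Polr1d, a subunit shared by RNA polymerases I and III, had 23.2 to 32.8 and 30.6 to 56.3 FPKM. In B6 both reached their highest values in IL-2126.

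Cyp3a25 itself defined the groups, and its values are a description. Its line means ranged from 373.0 to 1502 FPKM in A/J (median 568.0) and from 160.5 to 419.0 FPKM in B6 (median 240.0), with 194.6 to 1674 FPKM in the other 18 lines. The isoform ENSMUST00000068317 took 95.5% to 99.0% of the gene in A/J lines and 69.5% to 84.5% in B6 lines, and ENSMUST00000145062 took 0.935% to 4.31% and 15.2% to 30.1%. The A/J ends at 95.5% and 4.31% are IL-4052, whose second mouse had 92.1% and 7.77%. The 2 remaining isoforms, ENSMUST00000138870 and ENSMUST00000153808, stayed at or below 1.07% in every line of both groups.

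The other Cyp3a genes showed no called difference. Of the 9 genes of the family on the list, 7 were tested beside Cyp3a25, and Cyp3a57 did not pass the filter on low values. Cyp3a11, the main inducible Cyp3a of mouse liver, had 921.6 to 1630 FPKM in A/J and 515.0 to 3278 FPKM in B6, so that the B6 lines enclosed the A/J lines (log2 difference -0.06 ± 0.42, SE). Its direction turned with body weight as a covariate, with the lines of at least 2 mice and with single lines left out. Cyp3a59, the gene next to Cyp3a25 at 69.6 kb, had 2.22 to 26.5 FPKM in A/J and 9.11 to 36.8 FPKM in B6 (-1.20 ± 0.57, exact permutation p = 0.0909). The A/J line at 26.5 FPKM was IL-1141, which also had the highest Cyp3a25.

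Cyp3a13 lies outside the cluster, at -8458 kb from Cyp3a25, and its line means were 7.71 to 61.4 FPKM in A/J and 36.5 to 94.7 in B6 (-1.42 ± 0.53, adjusted p = 1 by limma, exact permutation p = 0.0433). Cyp3a44 had 0.14 to 2.63 FPKM in A/J and 0.01 to 1.67 in B6, a difference of 0.48 ± 0.34. The female-predominant Cyp3a16, Cyp3a41a and Cyp3a41b were near 0 in these males. Cyp3a16 was listed at 7.48 FPKM in IL-1141 and at 0 in 4 of the 6 A/J lines and 4 of the 5 B6 lines. Cyp3a41a reached 6.91 FPKM in IL-1141 and 3.96 in IL-1452, and Cyp3a41b did not exceed 0.0333 in any line of the groups. The annotated copies Cyp3a41a and Cyp3a41b are nearly identical, so their separate values are uncertain.

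**Figure D3:**
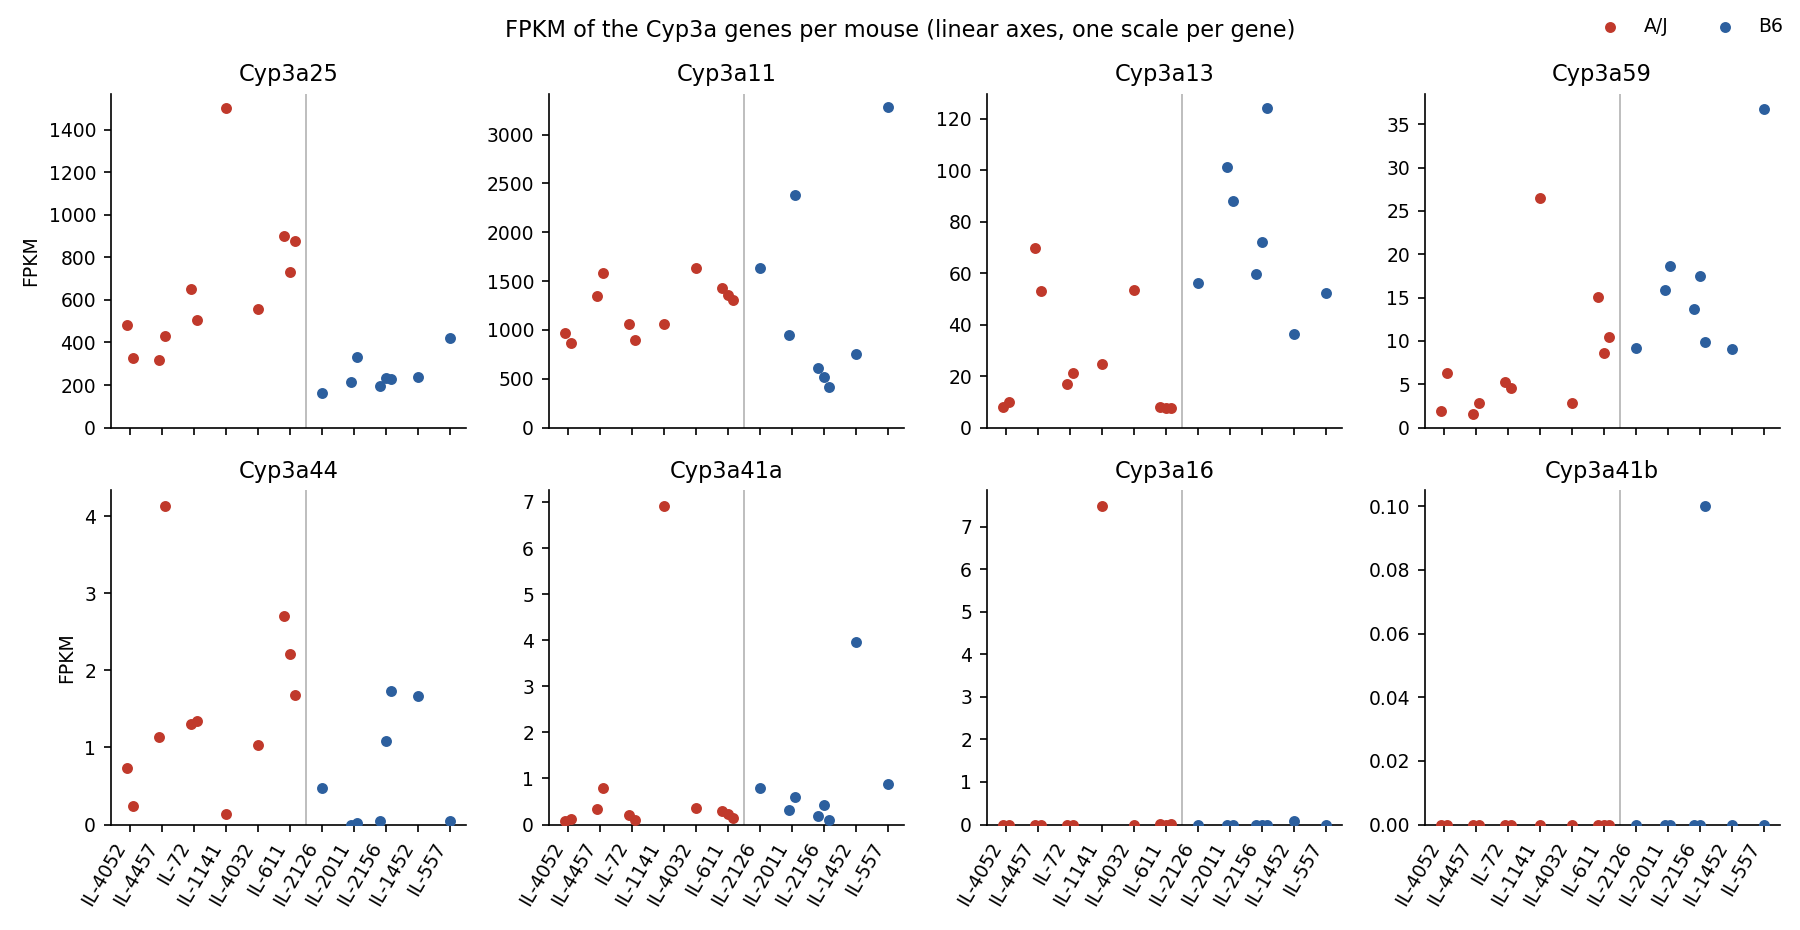
FPKM (vertical axes, linear, one scale per gene) of Cyp3a25 and the 7 other tested Cyp3a genes in each mouse, by line, with A/J lines in red on the left and B6 lines in blue on the right of each grey line. The groups overlap for each gene, Cyp3a25 included, and IL-1141 is high for Cyp3a25, Cyp3a59, Cyp3a16 and Cyp3a41a.

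Outside the window no gene passed the adjusted threshold in limma, among 11215 tested, and 301 had an unadjusted p under 0.05. The gene nearest to the threshold was Gm4956, a protein-coding gene on chromosome 1. It had 12.3, 11.6, 4.98, 4.90, 14.4 and 15.4 FPKM in the A/J lines and 0, 0.345, 0.0133, 4.27 and 0.43 FPKM in the B6 lines. The groups did not overlap, with IL-1452 close to the lowest A/J lines, and the log2 difference was 2.74 ± 0.46 (SE, adjusted p = 0.620 by limma, exact permutation p = 0.00433). It was called without IL-1452 and when the 19 mice were fitted with the line as a random effect.

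The other genes with the smallest p and a higher level in A/J differed by less. Slc39a4, a zinc importer, had 17.1 to 33.0 FPKM in A/J and 12.7 to 18.2 in B6 (0.71 ± 0.15). A930005H10Rik had 3.51 to 5.25 against 1.05 to 2.78 FPKM (0.84 ± 0.17). Cyp2d9, a male-predominant steroid hydroxylase, had 706.3 to 1018 FPKM in A/J and 315.9 to 738.6 in B6 (0.88 ± 0.22, exact permutation p = 0.013), and only IL-557 of the B6 lines reached the A/J range. Zfp64, Atg2a (autophagy), Xpnpep1 (an aminopeptidase), Mettl22 and the pseudogene Gm5898 had differences of 0.37, 0.38, 0.39, 0.37 and 1.12 on the log2 scale. Gm10163, described above with Rpl21, belonged to the same 10 genes.

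Among the genes with a lower level in A/J, Cyp4a14, which hydroxylates fatty acids and is a target of PPARα, had the largest difference of the 10 named. It had 0.09 to 26.3 FPKM in the A/J lines (median 2.18) and 6.57 to 384.4 in the B6 lines (median 169.3), and IL-4457 and IL-4032 in A/J exceeded IL-2156 in B6. The log2 difference was -4.49 ± 1.18 (SE, adjusted p = 1 by limma, exact permutation p = 0.013). Nudt19, a peroxisomal coenzyme A hydrolase, had 6.203 to 20.1 FPKM against 20.3 to 28.1 (-1.08 ± 0.29), and Slc31a1, a copper importer, had 39.1 to 46.3 against 47.3 to 60.8 (-0.33 ± 0.09). In both the groups did not overlap, by a narrow margin. S1pr5, a sphingosine 1-phosphate receptor, had 0.28 to 2.80 against 2.13 to 4.64 FPKM, and D14Ertd449e had 1.23 to 5.10 against 3.24 to 36.8 FPKM. Arl5a, Gm13194, Camk2n1, Gm2023 and Gm16157 completed the 10 genes, with differences of -0.62, -0.82, -0.37, -0.49 and -0.85.

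No member of the 20 gene lists was called by limma, so the lists are described by counts and medians, beside a median of -0.01 over all genes tested and 2.7% with an unadjusted p under 0.05. Of 42 tested cytochrome P450 genes outside the Cyp3a family, 8 had an unadjusted p under 0.05, 4 in each direction, and the median difference was -0.24, or -0.07 without IL-2126. Of 16 xenobiotic receptors and their partners, 2 did, namely Cyb5r3, the cytochrome b5 reductase (148.2 to 211.6 FPKM in A/J and 112.4 to 167.3 in B6, difference 0.44), and Nr1h4, the bile acid receptor (34.0 to 45.3 and 39.0 to 48.3 FPKM, difference -0.23). The medians were -0.05 for this list and 0.07 for 23 tested targets of PXR and CAR, in which Ces2a, a carboxylesterase, was the only one with an unadjusted p under 0.05 (0.65 ± 0.25), followed by Gstm1 (0.59 ± 0.36). Among 44 conjugation enzymes 2 did, the sulfotransferase Sult1a1 (-0.86 ± 0.26) and the glycosyltransferase Ugt3a1 (0.84 ± 0.30), with a median of 0.07. Among 19 transporters, the efflux pump Abcg2 did (0.64 ± 0.19), with the uptake transporter Slco1a1 next (0.69 ± 0.32) and a median of 0.05.

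The lists of sex-predominant genes had the largest medians. Over all 11283 genes tested, 5352 had a positive and 5895 a negative difference. Of 16 male-predominant genes 13 had a positive difference, with a median of 0.70 (0.48 without IL-2156). An unadjusted p under 0.05 was reached by 3, each higher in A/J. The members with the largest differences in size, Mup20 (-3.34) and Mup1 (-3.05), which encode major urinary proteins, were among the 3 with a negative one. They are named after their values were seen, and their levels are uncertain because the Mup genes are near-identical copies. The summed FPKM of the list was 12191 to 59876 in A/J (median 31424) and 18458 to 66618 in B6 (median 42208). Elovl3, a fatty acid elongase, had 187.8, 71.5, 210.3, 29.7, 103.0 and 200.7 FPKM in the A/J lines and 8.70, 12.8, 71.2, 7.77 and 106.6 in the B6 lines (difference 2.32 ± 0.73, exact permutation p = 0.0303). Of 20 female-predominant genes 17 had a negative difference, with a median of -0.68, and 1 had an unadjusted p under 0.05, Cyp39a1, an oxysterol hydroxylase (-1.52 ± 0.56). Without IL-2126 the median of the female-predominant genes was -0.20, and over the other single lines left out it reached -0.84. The median distance of these genes from their mean over the 11 lines was 1.37 in IL-2126 and 0.87 in IL-1452. Both are B6 lines with 1 mouse. The other B6 lines, at -0.56 to -0.34, lay within the A/J lines, at -0.65 to -0.25. The 13 genes of the growth hormone axis had a median of -0.03 and none with an unadjusted p under 0.05. Its members with the smallest p were Ghr (0.20 ± 0.16) and Cish (-0.97 ± 0.82), and Cish turned to 1.07 with only the lines of at least 2 mice.

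Of 23 acute phase genes 21 had a negative difference, with a median of -0.49, and none had an unadjusted p under 0.05. Saa3, a serum amyloid A protein, was at 594.1 FPKM in IL-2011 and 213.1 in IL-2156 and at or below 18.7 FPKM in the other 9 lines (-1.78 ± 0.97), and Crp had -0.40 ± 0.22. The IL-2011 mean of Saa3 rests on 1 of its 2 mice, at 1179 FPKM. Without IL-2156 the median of the list was -0.06. The medians were 0.05 for 16 bile acid genes, 0.13 for 22 genes of cholesterol synthesis and -0.0022 for 22 of lipogenesis. They changed sign without IL-611 (-0.0026), IL-1452 (-0.13) and IL-2126 (0.20), in that order. The medians of the growth hormone axis (0.04 without IL-4457), of the PXR and CAR targets (-0.02 without IL-4032), and of the conjugation enzymes and transporters (-0.04 and -0.03 without IL-2011) did so too. In the bile acid, cholesterol and lipogenesis lists the members with the smallest p were Cyp8b1, the sterol 12α-hydroxylase (0.76 ± 0.43), Srebf2 (0.20 ± 0.17), Tm7sf2 (0.19 ± 0.19), Cd36 (-1.12 ± 0.52) and Pklr (0.44 ± 0.31), with Nr1h4 given above.

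**Figure D4:**
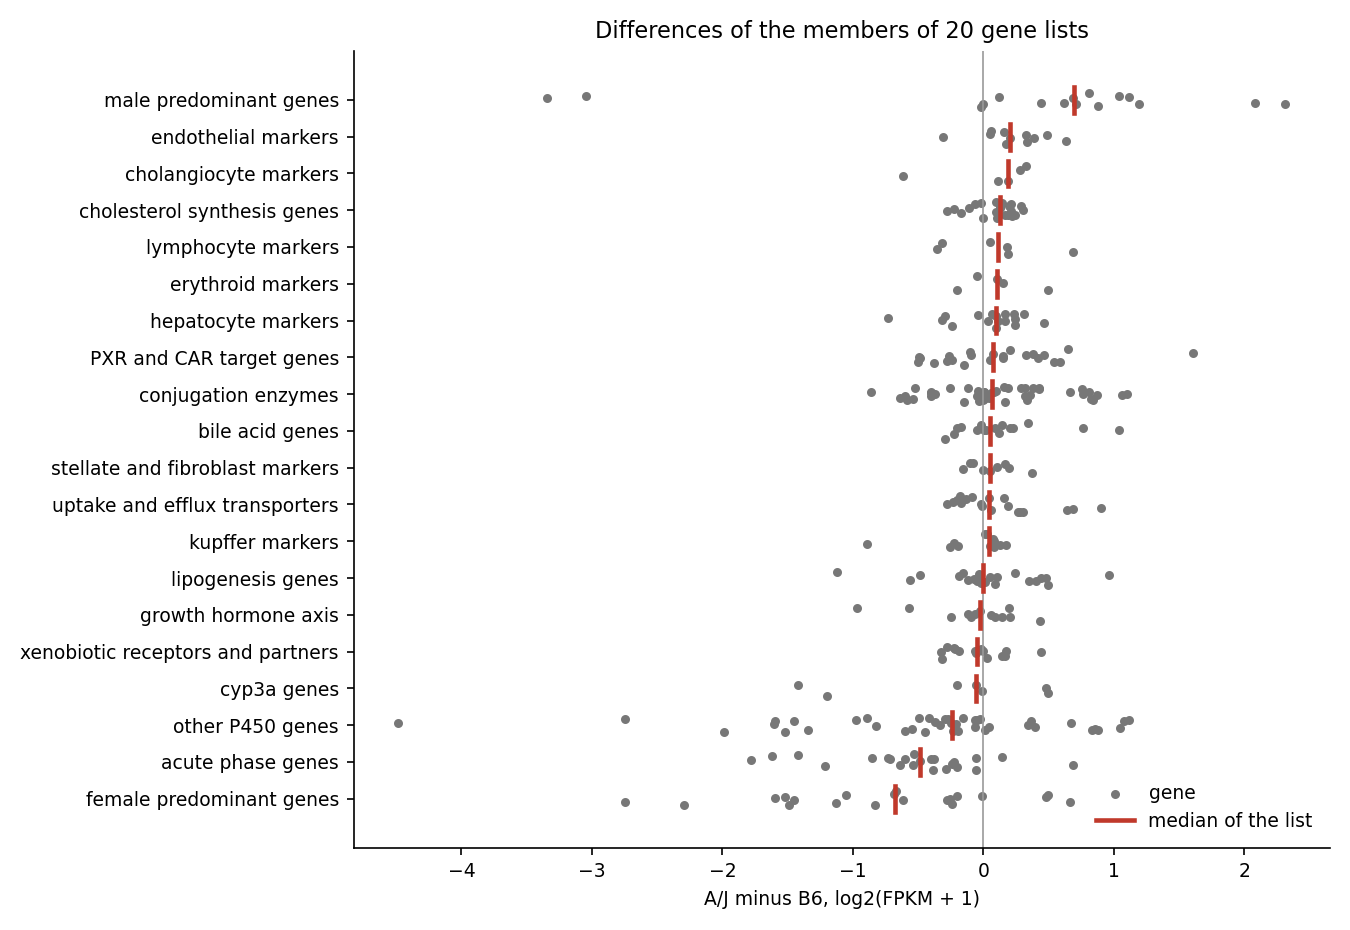
Differences (A/J minus B6, log2(FPKM + 1), horizontal axis) of the tested members of 20 gene lists (rows, ordered by median). Grey points are genes and red bars are medians, which run from -0.68 for female-predominant to 0.70 for male-predominant genes. None of these genes was called by limma.

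Markers of cell types were measured for the same lines. The summed FPKM of 17 hepatocyte marker entries was 87437 to 101291 in A/J and 73862 to 112300 in B6. Apob (-0.30 ± 0.20) and Ttr (0.31 ± 0.21) were the members with the smallest p. Trf was entered more than once, with differences of -0.32 and 0.46. The sums were 116.6 to 173.6 and 41.1 to 431.4 for 12 Kupffer cell markers, 54.4 to 106.1 and 40.7 to 87.5 for 11 endothelial markers, and 76.2 to 132.6 and 55.8 to 174.8 for 11 markers of stellate cells and fibroblasts. They were 137.0 to 969.0 and 145.7 to 419.0 for 8 cholangiocyte markers, 5.58 to 25.4 and 2.29 to 32.3 for 12 lymphocyte markers, and 524.6 to 2575 and 509.8 to 4174 for 7 erythroid markers. The groups overlapped in each sum. Sox9, Krt7 and Cftr of the cholangiocyte list, Cd3d, Cd3e, Cd3g, Cd2, Cd8a and Nkg7 of the lymphocyte list, Col1a1, Hand2 and Slc4a1 were not tested because they were below the filter on low values. Medians of the tested members were 0.10, 0.04, 0.21, 0.05, 0.19, 0.11 and 0.10 in the same order, and only Vwf, an endothelial protein (-0.31 ± 0.13), had an unadjusted p under 0.05. Vwf was the only one of the 11 endothelial markers with a negative difference, and its sign turned with edgeR (0.0468 filtered, 0.0660 unfiltered) and DESeq2 (0.0414). The other members named by the rule had differences of 0.64 (Clec4g), -0.89 (Marco), -0.22 (Timd4), 0.37 (Acta2), 0.20 (Lrat), -0.61 (Spp1), 0.32 (Krt18), 0.18 (Cd79a), 0.69 (Ighm), 0.49 (Alas2) and -0.20 (Hbb-b1). The median of each marker list other than the endothelial and lymphocyte lists changed sign when a single line was left out. In bulk liver, fewer cells of a type and less RNA per cell cannot be told apart.

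Isoform ratios, or how much of a gene (in percent) RSEM gave to one isoform, were tested for 8099 genes with 1 isoform each. One passed an adjusted p of 0.05 (0.0123%), again in Rpl21. An unadjusted p under 0.05 was reached by 501 genes or 6.19%, with 283 (3.49%) higher and 218 (2.69%) lower in A/J, and the groups did not overlap for 35 genes or 0.432%. Within 5 Mb of Cyp3a25, 8 of 49 genes (16.3%) had an unadjusted p under 0.05, 4 in each direction, and 5 of these were among the 16 genes within 1 Mb. The groups did not overlap for 2 of the 49, Rpl21 and Zkscan5.

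The isoform ENSMUST00000075453 of Rpl21 took 52.7%, 25.0%, 36.2%, 4.17%, 37.1% and 43.0% of the gene in the A/J lines and 98.2%, 96.2%, 96.4%, 97.1% and 95.6% in the B6 lines. The groups did not overlap, and the difference was -63.7 points ± 7.29 (SE, adjusted p = 0.0498 by limma, exact permutation p = 0.00433). In A/J the isoforms ENSMUST00000099272 and ENSMUST00000035983 took medians of 34.2% and 17.4%, against 1.29% and 1.99% in B6. These shares rest on few fragments in A/J. Apart from the second IL-4052 mouse, the isoform had 1.43 to 27.5 estimated fragments per A/J mouse of 33.8 to 79.2 for the gene, against 1322 to 2886 for the isoform in B6 mice. The second IL-4052 mouse, with 1021 fragments of the gene, had 91.0% of this isoform, and its line mate had 14.4%. Without that mouse the difference was -70.1 points and the adjusted p 0.00784 (limma). The call was kept without IL-4052 or IL-1141 and lost without any other single line (adjusted p of 0.123 to 0.266, limma). It was also lost with only the lines of at least 2 mice (-57.1 points, adjusted p = 0.842 by limma), and a mean of at least 2 FPKM in each line removed Rpl21 from the test.

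The other isoforms in the window that were named by the smallest p were not called. Zkscan5, a zinc finger protein gene at -855.8 kb from Cyp3a25, had 86.9% to 94.9% of ENSMUST00000085671 in A/J and 58.0% to 86.8% in B6 (16.5 points ± 5.07, SE, exact permutation p = 0.00433). Its closest lines differed by a small margin, 86.9% in IL-72 and 86.8% in IL-1452. Katnal1, a microtubule-severing protein, had 20.4% to 39.2% of ENSMUST00000047257 in A/J and 39.1% to 57.4% in B6 (-18.97 points ± 4.08, adjusted p = 0.739 by limma), with 34 to 209 fragments per line. Zfp655, the zinc finger gene next to Zkscan5, had 20.1% to 62.7% of ENSMUST00000167316 in A/J against 0.01% to 28.1% in B6 (24.8 points ± 7.82).

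Mtif3, a mitochondrial initiation factor of translation 954.2 kb from Cyp3a25, had 44.4% to 60.9% of ENSMUST00000110566 against 59.5% to 70.8% (-12.4 points, exact permutation p = 0.013). Rnf6, a ubiquitin ligase gene 211.9 kb away, had 59.5% to 77.6% of ENSMUST00000161859 against 73.2% to 87.1% (-10.3 points ± 3.65). Actb had 2.08% to 19.01% of ENSMUST00000031564 against 0.32% to 10.0% (9.36 points ± 3.08), and Hmgb1 had 57.8% to 73.5% of ENSMUST00000085546 against 44.5% to 64.4% (10.4 points ± 3.91).

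**Figure D5:**
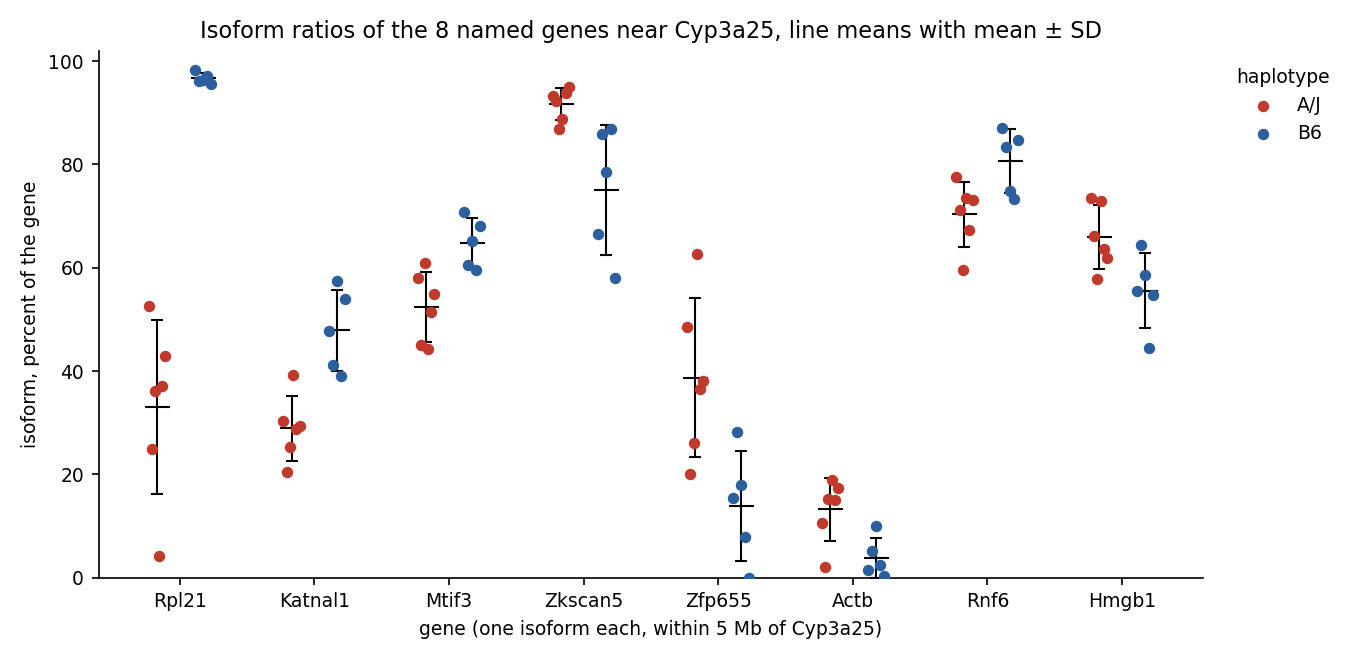
Isoform percentage of the gene (vertical axis) for the 8 named genes within 5 Mb of Cyp3a25 (horizontal axis), one isoform each. Points are line means (6 A/J in red, 5 B6 in blue), and black marks are the mean ± SD of the lines. The Rpl21 isoform lies at 4.17% to 52.7% in A/J and 95.6% to 98.2% in B6, and the other genes overlap or, for Zkscan5, nearly touch.

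Outside the window none of 8050 isoform ratios was called by limma, and 493 had an unadjusted p under 0.05. Cnot3, a subunit of the CCR4-NOT deadenylase, had 56.6% to 69.8% of ENSMUST00000038913 in A/J and 37.03% to 53.0% in B6 (20.3 points ± 3.27, adjusted p = 0.445 by limma, exact permutation p = 0.00433). Per1, a component of the circadian clock, had 46.3% to 83.1% of ENSMUST00000021271 in A/J and 0% to 40.1% in B6 (51.9 points ± 9.25), with 25.5 to 948 fragments of the gene per line. The calcium channel gene Orai1 lies on chromosome 5 too, at -23356 kb from Cyp3a25, and differed by 23.4 points ± 4.62. Mthfsd, B230312A22Rik and Mospd3 differed by 17.9, -25.1 and 6.54 points with groups that did not overlap, and Zfp715 and Pgs1 by -31.3 and -8.60 points with groups that did.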

How the data were processed

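The authors aligned 50-base paired reads to mm9 (NCBI build 37) with the Ensembl 67 annotation and quantified them with RSEM 1.2.18. The deposited expected counts are fragments that RSEM estimated per gene or isoform, with ambiguous fragments shared out. The deposited FPKM and TPM values came from RSEM too, which divides by transcript length and library depth. Each isoform was also deposited as a percent of its gene. Gene positions came from Ensembl 65 on the same build, which placed 37205 of 37620 genes.

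Line means of log2(FPKM + 1), for genes with a maximum FPKM of at least 2 over the 55 mice, and of isoform percentages, for the isoform with the most levels (bins of 0.5 or the maximum divided by 200), were compared with limma 3.58.1 and the Benjamini-Hochberg method at 0.05. Exact permutation tests used all 462 splits of the lines. Alternatives were edgeR 4.0.16 and DESeq2 1.42.0 on rounded line sums, other units, filters and covariates, and lines left out. The fits were tested on simulated data. Copies of Rpl21 were found with blastn 2.17.0.

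Named were all tested Cyp3a genes, the 8 smallest p within 5 Mb of Cyp3a25 for genes and for isoforms, outside it 10 genes in each direction and 8 isoforms, and from each list up to 4 called members, or the 2 with the smallest p. A gene that this rule names, and one below the filter, are not reported here. Groups, lists and rules were chosen with earlier results of these data known. The Rpl21 sums, the ribosomal protein genes and the fits without one mouse were added after seeing the values. The labels do not name batches. The number of fragments limits precision for isoforms of low genes.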

Additional observations from a re-analysis of the deposited data

Results flagged for a closer look

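Single lines that lay far from the others of their haplotype group were sought among the line values of the named genes and isoforms (Dixon's criterion, groups of 6 and 5 lines). It marked 11 values in 166 groups, and chance marks about 1 group in 20. For Rpl21, the A/J line IL-4052 had a mean log2(FPKM + 1) of 3.35 against 1.37 to 1.71 in the other A/J lines, with 1 of its 2 mice high. On the same scale, the A/J line IL-1141 had 3.08 for Cyp3a16 and 2.98 for Cyp3a41a, where no other A/J line exceeded 0.02 and 0.64. In B6, IL-1452 for Cyp3a16 (0.111) and IL-2156 for Cyp3a41b (0.0458) were marked as above the other B6 lines, which were all at 0. The B6 line IL-2126 had 3.30 for Gtf3a and 5.84 for Polr1d, above the other B6 lines, and 1.86 for Cd36, below them. Gm4956 was marked in the B6 line IL-1452 (2.40). The A/J line IL-4457 had 6.78 for Pklr and 3.22 for Alas2.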

How the results depend on the processing

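The count of 1 called gene in total expression, and of 1 near Cyp3a25, held with a pseudocount of 0.1, other FPKM filters, TPM, TMM factors, and body weight or age as a covariate. Both counts were 0 with edgeR on line sums, filtered or not, and with only the lines of at least 2 mice. DESeq2 called 42 genes, 2 of them near (Rpl21 and Cpsf4), and 11 of the 42 had fitted differences over 10 on the log2 scale. Its calls outside the window included Slc39a4 (0.79), Gm10163 (0.71) and Cyp2d9 (0.82), higher in A/J. Cyp4a14 (-4.66), D14Ertd449e (-2.50) and Slc31a1 (-0.33), lower in A/J, were also among them. With the 19 mice and a random line effect 2 genes were called, Gm4956 and Rpl21. Leaving out single lines or the second IL-4052 mouse gave 1 to 2 genes, 2 only without IL-1452, and 1 near Cyp3a25. The count near Cyp3a25 was also 1 within 1 and 10 Mb.

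For isoform ratios, the single call held with at least 12 levels, with the isoform of the highest mean and on the arcsine scale. It was 0, in all genes and near Cyp3a25, with a mean FPKM of at least 2 in each line, a filter that removes Rpl21, and with only the lines of at least 2 mice. The 19 mice gave 2 calls (Mthfsd and Rpl21). Leaving out lines gave 0 to 1 calls, in all genes and near Cyp3a25. The call was kept without IL-4052 or IL-1141 and lost without any other single line, where the difference stayed between -65.7 and -62.1 points. The cause was not tested.

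The log2 difference of Rpl21 was -4.62 with the lines of at least 2 mice. Among uncalled genes the sign turned for Cyp3a41a (0.0880, 0.0941 and 0.10) and Vwf (0.0468, 0.0660 and 0.0414) with edgeR filtered, edgeR unfiltered and DESeq2, for Cyp3a11 with body weight (0.0245) and with the lines of at least 2 mice (0.40), and for Cish (1.07) and Hbb-b1 (0.33) with those lines. With single lines left out, ranges that crossed 0 were -0.38 to 0.29 for Cyp3a11, -0.64 to 0.13 for Cyp3a41a, -0.0184 to 0.60 for Cyp3a16, -0.00697 to 0.54 for Krt18, -0.58 to 0.17 for Hbb-b1, -0.0247 to 0.98 for Alas2 and -0.46 to 0.0846 for Timd4. Of 1697 recomputed values of named genes, 1659 kept their direction and side of the threshold, as did 269 of 280 of named isoforms. The labels share no replicate numbers that would pair lines. Limits are the 11 lines, 5 of them with 1 mouse, and the few Rpl21 fragments in A/J.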
